A study of Arabidopsis thaliana with 10 samples.

Results

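The H3K4me3 loop network of Arabidopsis shoots was taken as every H3K4me3 loop in the deposited list that joined different anchors. It held 14462 of the 59276 loops deposited for the 5 antibodies of the series, and 3 further loops that joined an anchor to itself were left out. The loops came from chromatin interaction analysis with paired-end tags (ChIA-PET), in which cross-linked chromatin is precipitated with an antibody, DNA ends held close together are ligated, and both ends of each ligated fragment are sequenced. A loop is a pair of anchors linked by several such paired-end tags (PETs), and an anchor is an H3K4me3 peak supplied to the loop caller. All 10 samples of the series were shoots of Col-0 wild-type seedlings, 2 weeks old and raised under long days, fixed with EGS and then formaldehyde, and the antibodies were against H3K4me1, H3K4me3, H3K9me2, H3K27me3 and RNA polymerase II (RNAPII). H3K4me3 had 2 labelled replicates, which were deposited as 1 combined list, so no value below has a spread between replicates and no difference was tested. The 95% intervals are exact (Clopper-Pearson), cover counting error only, and treat loops that share an anchor as separate.

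Trimethylation of lysine 4 on histone H3 (H3K4me3) lies over the first nucleosomes downstream of the start of transcribed genes, where methyltransferases of COMPASS-like complexes place it. In Arabidopsis, whose genes lie close together, it marks housekeeping genes and, in green tissue, the nuclear genes of photosynthesis. It is scarce in pericentromeric heterochromatin and largely apart from H3K27me3, the mark of genes silenced by Polycomb. In bulk shoots, loops in few cells and weak loops in many cells give the same PET count.

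Promoters of genes at 6 of the most connected anchors are shown here, since the account below returns to these genes. The windows run from 250 bases before to 50 bases after the annotated start, on the gene strand, in the TAIR10.1 assembly of RefSeq, and capitals mark matches to 6 short motifs. The G-box CACGTG, the evening element AAAATATCT, the telo box AAACCCTAA, the site II element TGGGCC and the I-box GATAAG were sought on both strands, and the TATA box TATAAA on the gene strand only.
LHCB6, chr1:5447831-5448130, minus strand: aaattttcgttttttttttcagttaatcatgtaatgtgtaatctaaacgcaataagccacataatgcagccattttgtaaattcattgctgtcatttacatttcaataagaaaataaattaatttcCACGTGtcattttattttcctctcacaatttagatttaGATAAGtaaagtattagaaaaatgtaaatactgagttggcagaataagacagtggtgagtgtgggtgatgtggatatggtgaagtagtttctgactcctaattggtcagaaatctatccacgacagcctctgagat
LHCA1, chr3:20341127-20341426, minus strand: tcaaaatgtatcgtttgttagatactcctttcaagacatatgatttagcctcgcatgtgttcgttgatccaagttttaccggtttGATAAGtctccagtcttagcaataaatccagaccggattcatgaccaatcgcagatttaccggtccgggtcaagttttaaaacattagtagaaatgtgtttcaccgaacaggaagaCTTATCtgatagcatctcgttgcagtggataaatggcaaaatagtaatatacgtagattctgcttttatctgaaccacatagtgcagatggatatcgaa
RCA, chr2:16573643-16573942, minus strand: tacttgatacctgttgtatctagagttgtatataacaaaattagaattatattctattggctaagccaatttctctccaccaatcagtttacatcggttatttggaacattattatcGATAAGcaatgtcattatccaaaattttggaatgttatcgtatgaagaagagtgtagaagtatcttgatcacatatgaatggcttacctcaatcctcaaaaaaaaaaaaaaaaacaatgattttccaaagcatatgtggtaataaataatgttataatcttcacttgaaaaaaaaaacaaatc
GUN5, chr5:4392380-4392679, minus strand: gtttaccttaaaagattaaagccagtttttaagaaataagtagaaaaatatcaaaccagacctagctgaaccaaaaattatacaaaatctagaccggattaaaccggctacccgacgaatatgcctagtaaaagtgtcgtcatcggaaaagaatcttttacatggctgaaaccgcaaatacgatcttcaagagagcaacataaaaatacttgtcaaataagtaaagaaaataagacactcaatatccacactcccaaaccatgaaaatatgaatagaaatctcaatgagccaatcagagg
CRD1, chr3:21076255-21076554, plus strand: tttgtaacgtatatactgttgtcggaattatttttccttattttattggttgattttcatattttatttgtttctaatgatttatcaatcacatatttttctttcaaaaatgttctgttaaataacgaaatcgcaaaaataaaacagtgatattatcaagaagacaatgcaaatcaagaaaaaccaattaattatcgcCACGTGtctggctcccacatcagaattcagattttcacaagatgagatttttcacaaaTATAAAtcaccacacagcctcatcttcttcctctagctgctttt
TIC, chr3:7912655-7912954, plus strand: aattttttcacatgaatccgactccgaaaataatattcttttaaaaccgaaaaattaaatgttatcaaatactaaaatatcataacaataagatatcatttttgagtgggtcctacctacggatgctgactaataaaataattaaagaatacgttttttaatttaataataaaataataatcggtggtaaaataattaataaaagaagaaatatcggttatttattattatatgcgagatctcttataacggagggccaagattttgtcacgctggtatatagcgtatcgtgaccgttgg
LHCB6 (a minor antenna protein of photosystem II) and CRD1 (the cyclase subunit that closes the fifth ring of chlorophyll) each held CACGTG, the G-box bound by bZIP and bHLH factors, and CRD1 also held TATAAA just after its start. LHCB6, LHCA1 (a photosystem I antenna protein) and RCA (Rubisco activase) held GATAAG, the I-box, 2 times in LHCA1. The windows of GUN5 (the H subunit of magnesium chelatase) and TIC (TIME FOR COFFEE, a clock regulator) held none of the 6 motifs.

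The network joined 9613 anchors, none of which overlapped another, with a median width of 955 bp. Of these, 9494 (98.8%) lay at a protein-coding gene by a rule of overlap, in which the gene with 1 kb before its start had to cover at least 0.5 of the anchor or be covered by it to that degree. Anchors were centred inside genes, with midpoints at a median distance of 434 bp past the start of the lead gene, the gene whose start was nearest. A single gene lay at 7692 anchors, a pair at 1748 and 3 or 4 genes at 54. Of the anchors with a pair, 70.4% held divergent genes that share an upstream region, 18.9% convergent and 10.6% tandem genes. The 119 anchors with no protein-coding gene were mostly annotated otherwise, 62 at a non-coding RNA gene and 44 at a pseudogene. The most connected of them, with 8 partners each, lay at the pseudogene AT1G27285 and at the non-coding RNA gene AT4G36648. The tags counted at an anchor ranged from 286 to 26778, with a median of 4211.

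Most loops were local. Of 13217 loops within a chromosome, 8588 (65.0%, 95% interval 64.2 to 65.8%) spanned less than 20 kb, and the median span was 11.3 kb. By span, 2034 loops were under 5 kb, 3864 from 5 to 10 kb, 2690 from 10 to 20 kb, 813 from 20 to 100 kb and only 455 from 100 kb to 1 Mb, whereas 3361 exceeded 1 Mb. A further 1245 loops (8.61%, 8.16 to 9.08%) joined different chromosomes. By count, the network therefore held many loops at gene scale, few at the scale of 100 kb to 1 Mb, and a second large class beyond it. The span classes differ in width, and the counts were not set against the pairs of anchors possible at each span. PET counts fell with span, from a median of 9 under 5 kb to 8 from 5 to 10 kb and 7 from 10 to 20 kb. In each longer class within a chromosome the median was 6, the lowest count such a loop could have. Loops between chromosomes had a median of 8, which is also the lowest count that class could have, and 70.2% of all loops had 6 to 8 PETs. The deposited FDR separated the classes more sharply, as 97.7% of loops under 5 kb had an FDR below 0.001, against 50.3% from 20 to 100 kb, 4.43% over 1 Mb and 6.83% between chromosomes.

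Local loops mostly linked an anchor to its nearest neighbours. Ranked along the chromosome, 4875 loops (36.9% of those within a chromosome, 36.1 to 37.7%) joined consecutive anchors, 2615 passed over 1 anchor, 1086 over 2 and 411 over 3, with median spans of 5.75, 9.32, 13.1 and 17.8 kb. Loops that reached 12 or more anchors on numbered 3833 and had a median span of 6631 kb. Passing over an anchor did not require that anchor to be linked. Among 3 anchors in a row within 20 kb, the outer anchors were joined in 34.9% of 1195 cases where the middle anchor was joined to neither, in 41.1% of 3493 where it was joined to 1 of them and in 36.3% of 1773 where it was joined to both. Over loops of any span, middle anchors that were passed over and joined to neither had fewer tags (median 3344) than the outer anchors of the same loops (4391). So did middle anchors joined to 1 of them (3423 against 5251), while for those joined to both the medians were 5926 and 5988.

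Of the 9608 pairs of consecutive anchors, 50.7% were joined, and the share depended on the gap between them. It was 15.3% for gaps under 2 kb, 73.3% for 2 to 5 kb, 69.6% for 5 to 10 kb, 36.9% for 10 to 20 kb and 5.22% for 20 kb and over. The low share at the shortest gaps stands beside a shortest span of 2124 bp in the whole list, and 90 loops in all spanned under 3 kb. Tags moved with the share as well. At gaps of 2 to 5 kb, the share joined was 60.2% (56.9 to 63.4%) where the lower tag count of the pair was among the lowest 25% of all pairs, 69.4% and 76.6% in the next groups of 25%, and 89.2% (86.8 to 91.4%) in the highest.

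**Figure D1:**
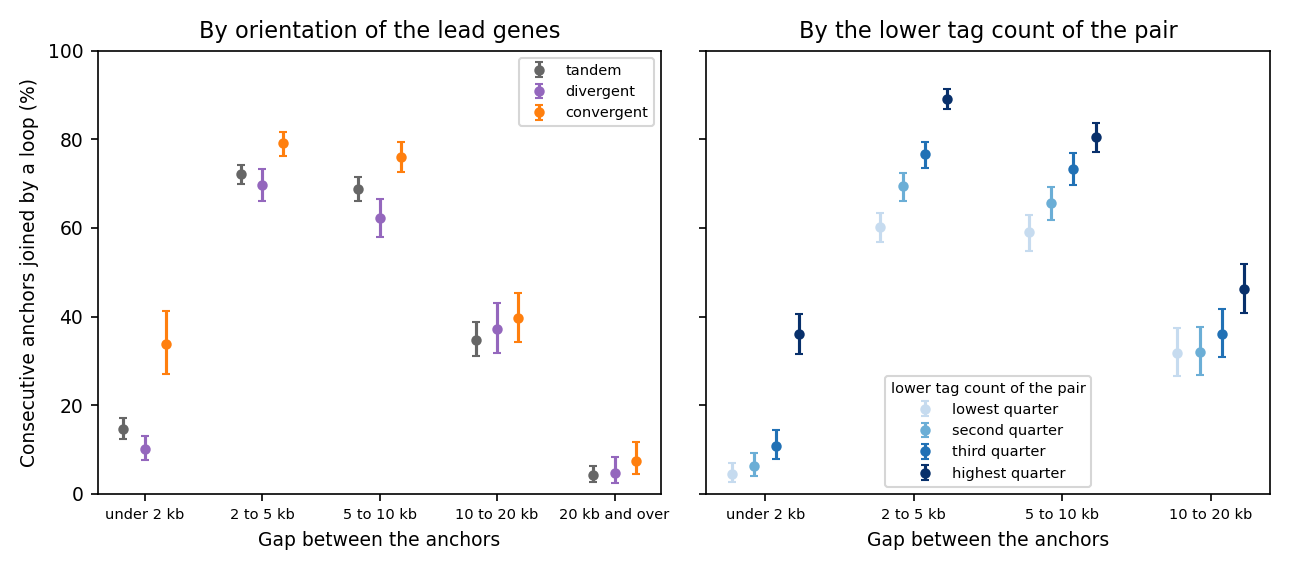
Share of consecutive H3K4me3 anchors joined by a loop (y axis, percent) by the gap between them (x axis), split by the orientation of their lead genes on the left and by the lower tag count of the pair, in 4 groups of equal size, on the right, with exact 95% intervals as bars. Convergent pairs lie above divergent pairs at gaps of 2 to 5 kb (79.1% and 69.8%), and the share climbs from 60.2% to 89.2% with tags at those gaps.

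Neighbouring genes pointing towards each other were joined most often. At gaps of 2 to 5 kb, 79.1% of 860 convergent pairs (76.2 to 81.7%) were joined, against 72.2% of 1699 tandem pairs (70.0 to 74.3%) and 69.8% of 676 divergent pairs (66.2 to 73.3%). At 5 to 10 kb the shares were 76.1%, 68.9% and 62.3%, and at 10 to 20 kb they lay between 34.8% and 39.7% with overlapping intervals. The lower tag count of the pair was similar in the 3 orientations at 2 to 5 kb, with medians of 2836, 2826 and 2925. Under 2 kb, 33.9% of convergent, 14.7% of tandem and 10.1% of divergent pairs were joined. Median lower tag counts there had the same order, at 3464, 3026 and 2971, and the part of tags was not tested. Annotated starts lying in the gap, those of the pair's own genes included, did differ at 2 to 5 kb, with a mean of 0.203 in joined convergent pairs and 1.36 in joined divergent pairs, and their part in the difference was not tested. Over gaps of 2 to 10 kb the convergent share exceeded the divergent share by 11.2 percentage points with all loops, 11.9 with an FDR below 0.001, 9.84 with at least 8 PETs and 5.07 with at least 10 PETs, a comparison added after the values were seen. The size of the difference thus was smallest with the highest PET minimum. Over all gaps, tandem pairs made up 51% (49.5 to 52.4%) of 4764 joined pairs and 53.8% of 4572 pairs not joined, and convergent pairs 28.9% and 18.7%.

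Neighbours with an H3K27me3 anchor between them were joined less often than neighbours without in every gap class and over all gaps. Over all gaps, 29.8% of 1596 pairs with an H3K27me3 anchor in between were joined, against 54.9% of 8012 pairs without. Within gap classes the shares were 0 of 5 pairs against 15.3% under 2 kb, 70.2% (59.9 to 79.2%) against 73.3% for 2 to 5 kb, 64.9% (59.5 to 70.0%) against 70.3% for 5 to 10 kb, and 35.4% against 37.8% for 10 to 20 kb. At 20 kb and over they were 4.15% of 698 pairs (2.80 to 5.91%) and 7.44% of 336 pairs (4.87 to 10.8%). The intervals of the paired shares overlapped in each class, and the difference was not tested. Of the 1596 pairs with such an anchor in between, 698 had gaps of 20 kb and over, where few pairs of either kind were joined.

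Joined neighbours formed 2882 chains, runs in which each anchor was linked to the next. Of these, 1677 held 2 anchors, 721 held 3, 299 held 4, 119 held 5 and 32 held 7 or more, and chains of 3 or more took in 4403 anchors (45.8%, 44.8 to 46.8%) with a median length of 16.8 kb. The 1856 anchors (19.3%) in no chain had a median of 3736 tags, against 4346 in chains. The longest chain ran over 11 anchors on chromosome 2 (18228499 to 18287962, 59.5 kb), with 6 to 14 PETs per link and 16 loops inside it. It passed from AT2G44065, a ribosomal protein L2 gene, through ARL (ARGOS-LIKE, a regulator of organ size), ASHH3 (a SET-domain histone methyltransferase), MTHFR2 (an enzyme of one-carbon metabolism) and MAP2A (a methionine aminopeptidase) to AT2G44230. No anchor in it had more than 8 partners, while 3 of the 4 chains described next held 1 highly connected anchor each, with 10 or more partners.

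The chain of 10 anchors, also on chromosome 2 (8951999 to 9002812), had stronger links of 7 to 19 PETs. Its 3 links of 19 PETs followed one another, from LIP1 (lipoic acid synthase) to PSB29 (a thylakoid protein of photosystem II), DGK5 (a diacylglycerol kinase) and AT2G20920. Of the 2 chains of 9 anchors, that on chromosome 3 (22758532 to 22810896) held SLD1 (a sphingolipid desaturase, 18 partners), HWS (an F-box protein of floral organ fusion), CRF6 (a cytokinin response factor) and AGP20 (an arabinogalactan peptide). That on chromosome 4 (16931092 to 16978165) held PLDDELTA (phospholipase D delta), NRPB1 (the largest subunit of RNA polymerase II) and ACO1 (aconitase), with weak links of 6 to 9 PETs throughout. The strongest of the 10 chains of 8 anchors, on chromosome 3 (19832410 to 19874566), reached 23 PETs between RS2Z32 (a splicing factor) and UXS1 (which makes UDP-xylose). The genes within each of these chains differed widely in annotated product, and none of the anchors of these 5 chains overlapped an H3K27me3 anchor, as only 95 of all 9613 anchors (0.988%) did.

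The loop with most PETs in the network linked copies of the same sequence. It joined AT5G40910, a disease resistance gene of the TIR-NBS-LRR class (chromosome 5, 16395468 to 16396434), to an anchor 5.13 kb away at AT5G40920, which is annotated as a pseudogene of that class, with 84 PETs although the anchors had only 4844 and 1911 tags. Their sequences share an exact run of 211 bases. Such sharing was rare, as 28 of 14462 loops (0.194%) joined anchors that share an exact run of 50 bases, and none of the 1245 loops between chromosomes did. Among consecutive anchors, 0.390% of joined pairs and 0.338% of pairs not joined shared such a run, but 2.66% of the 188 links with 20 or more PETs did. The part of read placement between copies in these PET counts was not tested.

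The other leading loops up to 100 kb shared no exact run over 14 bases, except that of GOX2 and GOX1. PIP2A (a plasma membrane aquaporin) and the ribosomal protein L11 gene AT3G53430 were linked by 75 PETs over 5.93 kb on chromosome 3. IAGLU (an indole-3-acetate glucosyltransferase) and CLA1 (which catalyses the first step of plastid isoprenoid synthesis) were linked by 66 PETs over 7.17 kb on chromosome 4. LFR and the anchor of RLP36 and CIPK7 were linked by 60 PETs over 9.99 kb, and ALDH11A3 (an aldehyde dehydrogenase) and AT2G24280 by 49 PETs over 5.25 kb. Under 5 kb, VTC2 (a step in ascorbate synthesis) led with 55 PETs to AT4G26860, followed by AT1G77930 and AT1G77940 with 49, AFB3 (an auxin receptor) and AT1G12830 with 41, and AVP1 (the vacuolar proton pyrophosphatase) and AT1G15710 with 40. GOX2 and GOX1, tandem genes of the photorespiratory glycolate oxidase, were linked by 44 PETs but share a run of 57 bases. From 10 to 20 kb the strongest loop ran from the anchor of CYSC1 and PIP1A over the anchor between them to LHCA2, a photosystem I antenna gene, with 48 PETs. It was followed by AT5G22090 to AT5G22100 with 38, RCA to AT2G39750 with 34, AT4G31150 to AT4G31180 with 31 and AT5G19120 to AT5G19150 with 28. From 20 to 100 kb, the strongest were UGT71C4 to RPL4 with 33 PETs and CH1 (chlorophyllide a oxygenase) to NPQ4 (PsbS, the sensor of energy-dependent quenching) with 26 PETs over 22.0 kb, where no other anchor lies between. AT1G23985 to AT1G24040 had 17, AT5G22090 to AT5G22120 had 15 and HXK1 (hexokinase, a glucose sensor) to SNF7.1 had 14.

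Partners were spread very unevenly over anchors. The median anchor had 2 partners and the highest 98. In all, 3987 anchors had 1 partner, 4273 had 2 to 4, 915 had 5 to 9, 318 had 10 to 19 and 120 had 20 or more. The 438 anchors with 10 or more partners (4.56%, 4.15 to 4.99%), here called highly connected, held 27.7% of all loop ends and took part in 43.7% of loops. Their loops reached farther, which the cut-off fixes in part. No anchor had more than 9 partners within 20 kb, so 10 partners could be reached only with longer loops or loops between chromosomes. Loops under 20 kb made up 91.4% of the ends at anchors with 1 partner, 50.8% with 5 to 9 partners and 12.6% with 20 or more, while the interchromosomal share of ends went from 0.426% to 6.97% and 30.1%. The mean number of partners within 20 kb still grew, from 0.914 to 4.07 in the highest class. Tags and width moved with this order, with median tags of 2917, 4666, 8956, 12616 and 16858 in the 5 classes and median widths of 796 to 2462 bp. Across anchors, partners and tags had a Spearman correlation of 0.65, given as a description since PETs are drawn from the same libraries as tags.

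**Figure D2:**
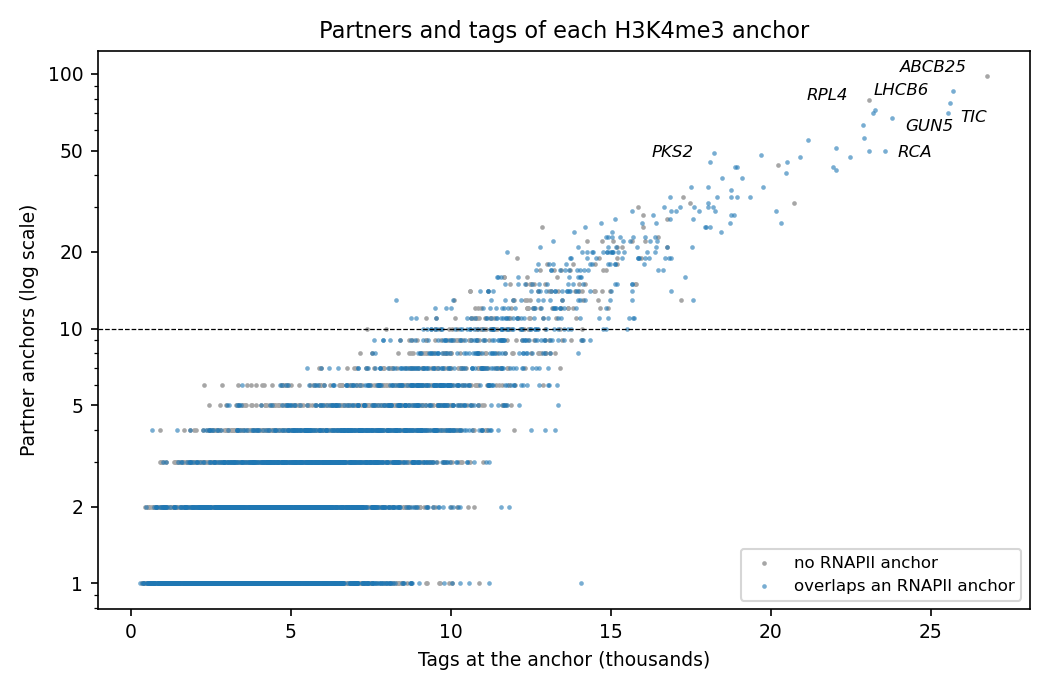
Partner anchors (y axis, log scale) against tags (x axis, linear scale) for the 9613 H3K4me3 anchors, in blue where the anchor overlaps an RNAPII anchor, with the line at 10 partners dashed. Above that line partners climb steeply with tags, up to 98 partners at 26778 tags for the anchor of ABCB25.

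**Figure D3:**
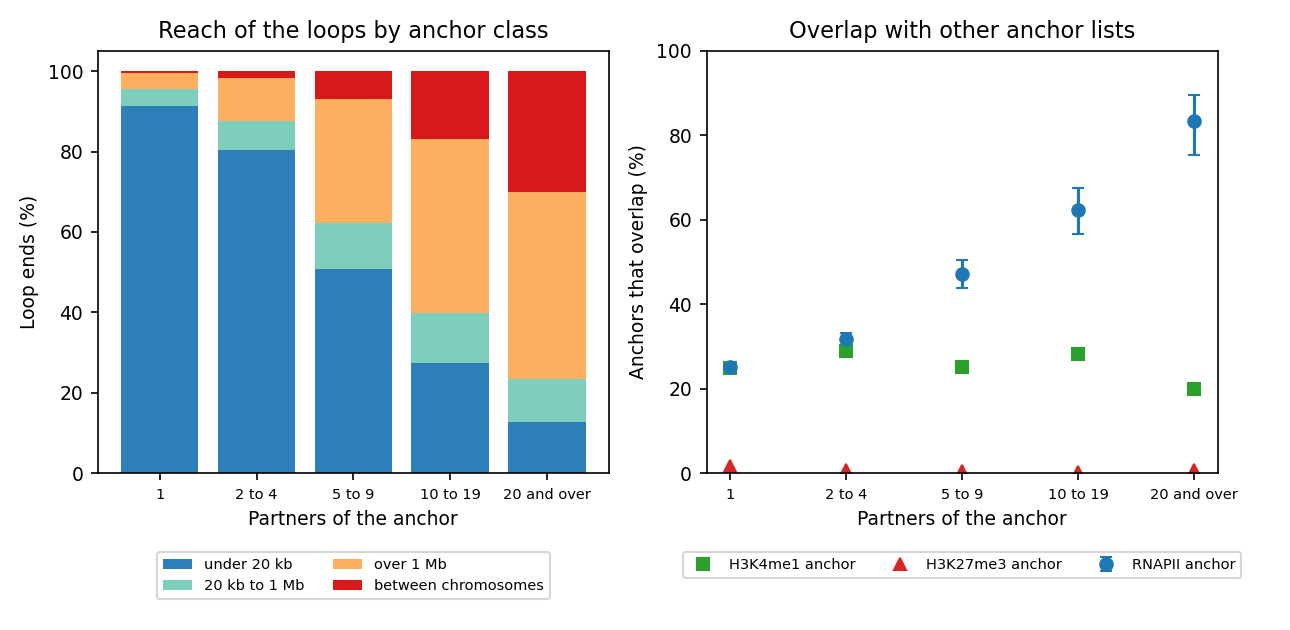
Share of loop ends by reach (left, percent) and share of anchors that overlap an anchor of another list (right, percent, exact 95% intervals for RNAPII) for H3K4me3 anchors grouped by number of partners. Ends under 20 kb fall from 91.4% to 12.6% from the first class to the last, and RNAPII overlap grows from 25% to 83.3%.

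The 15 anchors with most partners held genes of photosynthesis and chlorophyll synthesis (LHCB6, LHCA1, RCA, CRD1, GUN5) beside aquaporins, a histone, a ribosomal protein and a clock gene. The anchor with 98 partners (chromosome 5, 23558705 to 23563093) was 4389 bp wide and lay over 4 genes: ABCB25 (a mitochondrial ABC transporter), NdhN (a subunit of the chloroplast NAD(P)H dehydrogenase-like complex), EMB3143 (YCF54, of the chlorophyll cyclase step) and FHIT. Its partners were 7 within 20 kb, 10 from 20 kb to 1 Mb, 47 over 1 Mb and 34 on other chromosomes. LHCB6 followed with 86 partners, of which 36 lay on other chromosomes, and RPL4 (a ribosomal protein L4) with 79, of which 26 did. The anchor of CYSC1 (cyanoalanine synthase) and PIP1A (an aquaporin) had 77, and BG_PPAP (a beta-1,3-glucanase of plasmodesmata) had 72. CRD1 and TIC had 70 each, GUN5 had 67, the anchor of ULI3 and HTB4 (a histone H2B) 63, and AT1G20100 had 56. PIP1B, shared with CYP86A8 (a fatty acid hydroxylase of the cuticle), had 55, LHCA1 had 51, RCA and AT4G32030 had 50 each, and PKS2 (a phytochrome kinase substrate) had 49. Each of the 15 reached all 5 chromosomes.

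The leading anchors differed in reach. RCA had 8 partners within 20 kb and 9 over 1 Mb, whereas TIC had 1 within 20 kb and 40 over 1 Mb. PIP1B and AT4G32030, on the shorter chromosomes 2 and 4, had 28 and 30 of their partners on other chromosomes. On chromosome 4 the next was BRI1, the brassinosteroid receptor, with 43 partners, 22 of them on other chromosomes. The anchor with most partners within 20 kb, 9 of its 18, was that of AT2G35410, an RNA-binding protein gene on chromosome 2. Of the 15, 14 were among the 20 anchors with most tags, and the other, PKS2, ranked 41. Among the 120 anchors with most tags, partners ranged from 10 to 98 with a median of 26.5, and the lowest of them, NIA2 (nitrate reductase), had 10 partners with 15522 tags.

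Highly connected anchors, each of which by definition has at least 1 loop beyond 20 kb or between chromosomes, were linked to one another mainly by long loops. Of the 15, 7 of 105 possible pairs were joined, 6 of these between chromosomes: LHCB6 to CYSC1 and RPL4 to ULI3 with 15 PETs each, LHCB6 to BG_PPAP and RPL4 to PIP1B with 12, AT1G20100 to BG_PPAP with 11 and PKS2 to RCA with 9. The seventh, TIC to CRD1 on chromosome 3, had 12. Among all 438, 1685 loops joined 2 highly connected anchors, which is 1.76% of the possible pairs. Such loops were 0.518% of loops from 5 to 10 kb, 24% of those over 1 Mb and 53.3% of those between chromosomes, and 96.1% of loops between chromosomes had at least 1 highly connected anchor. Of the ends at highly connected anchors, 45.0% were over 1 Mb and 23.3% between chromosomes, against 23.2% and 8.61% of all ends. The share of loops between 2 such anchors expected from these ends was not computed, nor the share joined over all pairs of anchors. No preference between highly connected anchors is read from these values. The 15 leading anchors alone took part in 30.4% of all loops between chromosomes.

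The count of partners depended on the loops with few PETs and a weaker FDR. With at least 8 PETs per loop, 112 anchors had 10 or more partners, ABCB25 led with 51, and the 15 leading anchors kept 23 to 51. With at least 10 PETs, 12 anchors had 10 or more. With an FDR below 0.001, 1 anchor did, that of RCA with 11 partners, and the 15 kept 1 to 11: TIC kept 1 of 70, LHCB6 5 of 86 and ABCB25 9 of 98. At that FDR 324 anchors had 5 or more partners. Most links of these anchors thus had an FDR between 0.001 and 0.05, and the strongest loop over 1 Mb, from the anchor of AT1G51402 and NFU5 to AT1G74470 on chromosome 1, had 13 PETs over 8940 kb and an FDR of 1.97e-03. The next were AT3G45880 to BAM2 (the receptor-like kinase AT3G49670) with 12 PETs over 1547 kb, ULI3 to WAVH2 with 12 over 2134 kb, GLU1 (ferredoxin-dependent glutamate synthase) to AT5G08680 (an ATP synthase subunit) with 12 over 1691 kb, and AT3G15530 to CYSC1 with 12 over 17482 kb. From 100 kb to 1 Mb none exceeded 11 PETs, as for AT3G60320 to SLD1 over 492 kb and AT3G60750 (a transketolase) to CYSC1 over 281 kb, and AT5G08680 to AT5G11090, Lhca6 to AT1G20100 and ULI3 to ARF2 (an auxin response factor) had 10 each. Between chromosomes, LHCB6 to ATMS1 (methionine synthase) and PKS2 to AT3G52060 followed the leading 2 with 14 PETs each, and AT2G37035 to ABCB25 had 13.

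Overlap with RNAPII loop anchors grew with the number of partners. RNAPII anchors were overlapped by 25% (23.6 to 26.3%) of H3K4me3 anchors with 1 partner, 31.8% with 2 to 4, 47.1% with 5 to 9, 62.3% with 10 to 19 and 83.3% (75.4 to 89.5%) with 20 or more, against 32.1% of all. For the 438 highly connected anchors it was 68.0% (63.4 to 72.4%). The anchors of ABCB25 and RPL4, the first and the third by partners, overlapped none, and the other 13 of the 15 did. H3K4me1 anchors were overlapped by 20.0% to 28.8% in every class with no such order, and H3K27me3 anchors by 1.56%, 0.632%, 0.437%, 0.314% and 0.833% in the 5 classes, against 0.988% of all. The order for RNAPII was much weaker among anchors with like tags. With anchors ranked by tags into 4 groups of equal size, RNAPII overlap in the third group was 34.3% with 1 partner, 33.2% with 2 to 4 and 36.4% with 5 to 9, and in the lowest group 18.2% and 19.9% with 1 and with 2 to 4. In the highest group it was 51.4%, 45.5% and 49.5% in the same 3 classes and 68.0% with 10 or more, whose median tags of 13484 also exceeded the 7212, 7598 and 9336 of the other classes. Counting only partners within 20 kb, overlap was 35.7% with none, 27.6% with 1, 39.0% with 3 and 52.8% (47.0 to 58.6%) with 5 or more.

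Protein-coding genes at an anchor numbered 11081 of 27444 (40.4%), and 670 (2.44%) had 10 or more loops. Loops of a gene were counted over all anchors at it, including anchors it shared with other genes. Genes that build and run the photosynthetic apparatus lay well above both shares. Of 67 photosynthesis genes, 64 (95.5%, 87.5 to 99.1%) were at an anchor and 25 (37.3%) had 10 or more loops, with a median of 7 loops for those at an anchor against 2 over all genes. Their anchors also had more tags, with a median of 11203 against 4211. All 15 genes of the Calvin cycle list, which does not cover the whole cycle, were at an anchor. They were led by RCA with 50 loops, GAPA-2 with 18, PRK (phosphoribulokinase) with 17 and GAPA with 16. Of 21 antenna genes 19 were, led by LHCB6 with 86, LHCA1 with 51, LHCA4 with 17 and LHCA3 with 15, and LHCB4.3 and LHCB2.3 were at none. Of 31 genes of the photosystems and electron transport 30 were, led by PSAH2 with 25, PSBO2 (of the oxygen-evolving complex) with 21 and PSAO and PSAG with 18 each. The exception, PSBX, lies on chromosome 2 in a stretch that held no anchor at all. Of 17 genes of chlorophyll synthesis 14 were, led by CRD1 with 70, GUN5 with 67 and GUN4 and AT1G74470 with 19 each, while CHLI2, PORA and GSA1 were at none.

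**Figure D4:**
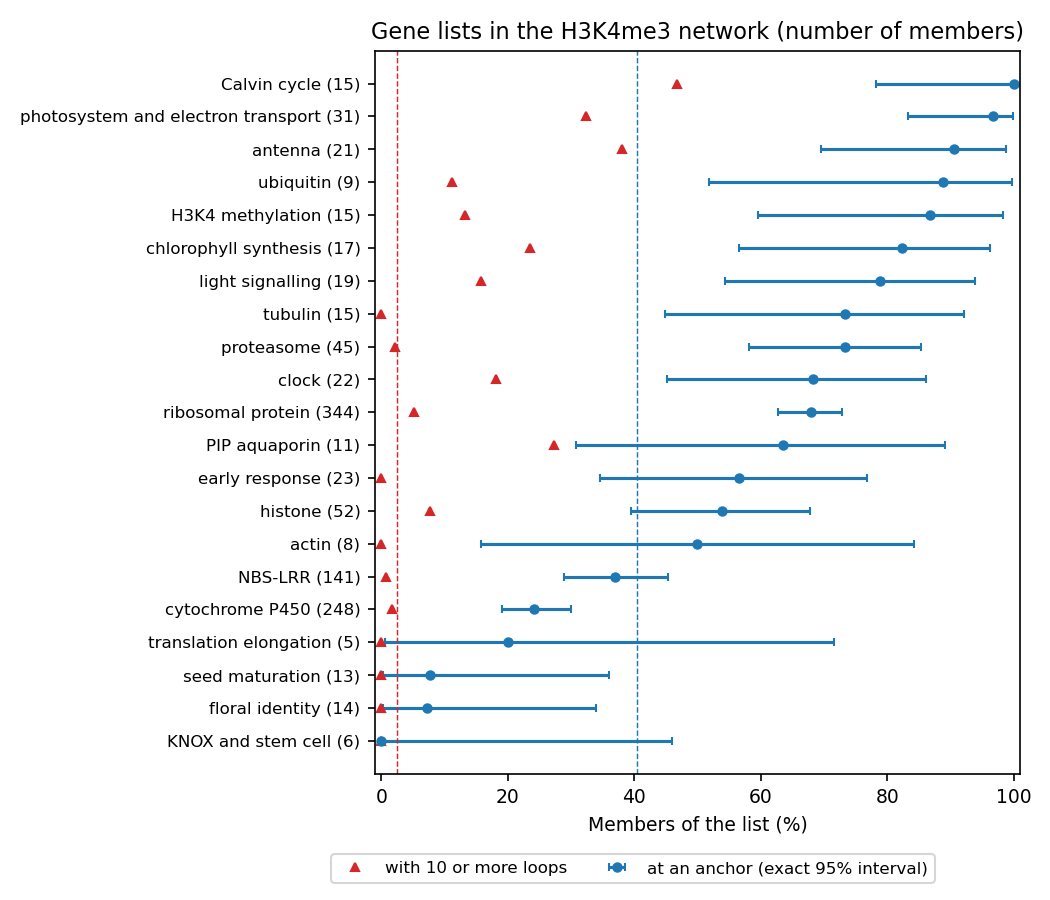
Share of the members of each gene list (rows, number of members in brackets) that lay at an H3K4me3 anchor, with exact 95% intervals (blue circles), and that had 10 or more loops (red triangles). Dashed lines mark the shares over all protein-coding genes, 40.4% and 2.44%, and the photosynthesis lists lie above both.

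Some loops joined photosynthesis genes to one another. Among their 64 anchors there were 12 loops, or 3.49% of their partner ends, where these anchors hold 2.38% of all ends. Of the 12, 5 were local and joined copies: RBCS3B, RBCS2B and RBCS1B, the clustered genes of the Rubisco small subunit, by 44, 26 and 12 PETs, and CAB1 to CAB2 and CAB3 by 11 and 7 PETs. These pairs share exact runs of 74 to 310 bases, so that reads could be placed in more than 1 copy. The 3.49% includes these 5 loops and was not recomputed without them, so no preference between photosynthesis genes is read from it. Of the rest, 5 joined chromosomes with 8 or 9 PETs, as PSAO to RCA and LHCB6 to PSBO2. The last 2 ran over 1 Mb within chromosome 1, LHCB6 to PSAK with 7 PETs and NPQ4 to RBCS1A with 6. Outside these 12, GUN5 of the chlorophyll synthesis list was linked to CAB2, Lhca6 and LHCB4.1 with 8 PETs each.

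Other lists spread over the whole range. Clock genes were at an anchor in 15 of 22 cases (68.2%, 45.1 to 86.1%), led by TIC with 70 loops, LCL1 (also known as RVE4) with 29, RVE1 with 14 and LHY with 13. Of 19 light signalling genes 15 were, led by PHOT2, a blue-light receptor, with 20, HYH and PIL6 with 10 each and CRY1 with 9, and COP1, PHYD, PIF7 and UVR8 were at none. The 20 loops of PHOT2 came from 4 anchors, while HYH, PIL6 and CRY1 had 1 anchor each. Writers and erasers of H3K4 methylation were at an anchor in 13 of 15 cases, led by RBL (AT3G21060, a COMPASS subunit) with 28, FLD with 10, TRO with 5 and WDR5a with 3, and JMJ18 and MEE27, demethylases, were at none. RBL shared its anchor with PSBTN, and FLD shared its anchor with SEC8. Among housekeeping lists, 234 of 344 genes listed as ribosomal protein by product text or symbol (68.0%, 62.8 to 72.9%) were at an anchor. Their median was 2 loops, with RPL4, AT1G16870, AT3G53430 and AT1G74060 leading with 79, 35, 31 and 31. The proteasome list, also made by product text or symbol and so including genes such as COP8 and FUS12, had 33 of 45 members at an anchor. AT3G02200 led with 12 loops, then AT4G24820 with 8 and AT1G53780 and RPN1A with 5 each. Tubulins were at an anchor in 11 of 15 cases, led by TUA2 with 7 and TUA5, TUA6 and TUB7 with 2 each, and TUA4, TUB1, TUA3 and TUB3 were at none. The histone list, made by product text or symbol, is not confined to histones, as it includes LEC1 of the seed maturation list. Of its 52 members 28 were at an anchor (53.8%, 39.5 to 67.8%, which holds the 40.4% over all genes). HTB4 led with 63 loops, then AT2G37470 with 17, HTB11 with 14 and AT3G07565 with 11. Of the 11 PIP aquaporins 7 were at an anchor (63.6%, 30.8 to 89.1%), led by PIP1A with 77, PIP1B with 55, PIP2A with 27 and PIP1C with 8, and PIP2;8, PIP2;5, PIP1;5 and PIP2;4 were at none. Ubiquitin genes were in 8 of 9 cases, led by UBQ5 with 33, UBQ3 with 7 and UBQ4 and UBQ6 with 4 each, and AT2G36170 was at none. Actins were in 4 of 8 (50%, 15.7 to 84.3%), ACT11 with 5 loops, ACT3 with 3 and ACT2 and ACT7 with 2 each, and ACT8, ACT1, ACT12 and ACT4 were at none. The intervals for PIP aquaporins and actins hold the 40.4% over all genes.

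Genes known for roles in flowers, seeds and meristem stem cells were mostly at no anchor. Of 14 floral identity genes 1 was at an anchor, SEP4 with 4 loops, of 13 seed maturation genes 1, OLEO1 with 3 loops at an anchor it shared with PMSR4, and of 6 KNOX and stem cell genes none, which allows a share of up to 45.9%. Cytochrome P450 genes were at an anchor in 60 of 248 cases (24.2%, 19 to 30.0%), below the 40.4% over all genes, led by CYP86A8 with 55 loops at the anchor it shared with PIP1B, AT3G06150 with 15, and CPD (of brassinosteroid synthesis) and CYP709B3 with 10 each. NBS-LRR genes were in 52 of 141 cases (36.9%, 28.9 to 45.4%), an interval that holds the 40.4% over all genes, led by RPP13, a downy mildew resistance gene, with 18, AT1G15890 with 8, AT1G72860 with 7 and AT1G69550 with 6. Stress and hormone genes of the early response were in 13 of 23 cases (56.5%, 34.5 to 76.8%), an interval that also holds the 40.4%. WRKY33 led them with 8 loops, then JAZ12 with 7, TCH3 with 3 and ERF5 with 2. Of the 5 translation elongation genes only AT5G60390 was at an anchor, with 1 loop, while AT1G07920, AT1G07930, AT1G07940 and LOS1 were not. The interval of that share, 0.505 to 71.6%, holds the 40.4% as well. The genes of elongation factor 1-alpha, an abundant protein, are nearly identical to one another, and the values of such copies are uncertain.

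Promoters of network genes carried some motifs at other frequencies than promoters at large. Of all 27443 promoter windows, 15.5% held TGGGCC, known from genes for ribosomes and cell growth, 14.6% held GATAAG, 7.68% CACGTG, 3.60% the telo box, 2.82% the evening element and 37.2% TATAAA on the gene strand. None of the 6 motifs contains another. TGGGCC was in 22.7% (21.9 to 23.5%) of the 11080 windows of genes at an anchor and 10.6% of those at none, and TATAAA in 33.2% and 39.8%. By number of partners, TGGGCC lay between 19.2% and 22.7% with no order, but GATAAG went from 14.2% (13.1 to 15.3%) at lead genes of anchors with 1 partner to 22.3% (17.9 to 27.3%) with 10 to 19 and 17.5% with 20 or more. CACGTG went from 8.68% to 14.2% (8.47 to 21.7%) in the same direction. Median GC content of the windows also differed, from 31.7% with 1 partner to 34.5% with 10 to 19.

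Anchors followed the genes along the chromosome arms and all but vanished around the centromeres. Chromosomes 1 to 5 held 2468, 1383, 2041, 1416 and 2305 anchors, or 32.0 to 37.4 per 100 protein-coding genes, the fewest on chromosome 2 and the most on chromosome 3. Pericentromeres, the runs of 500 kb windows around the 1 Mb with fewest genes whose gene density was under 0.5 of the chromosome mean, held 76 anchors (0.791%, 0.623 to 0.989%) in 16 Mb. Their density was 2.40 to 7.75 anchors per Mb, against 77.9 to 104 per Mb elsewhere, and stayed low against the genes present, at 5.10 to 15 anchors per 100 genes against 32.7 to 38.5. The most connected there were GME, an enzyme of ascorbate synthesis on chromosome 5, and NIA2 on chromosome 1, with 10 partners each, and PMI1, of chloroplast movement, with 9. Over 203 arm windows of 500 kb, the median was 46 anchors (quartiles 34 and 60), and anchors and genes had a Spearman correlation of 0.821, as a description of windows that share the same annotation.

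**Figure D5:**
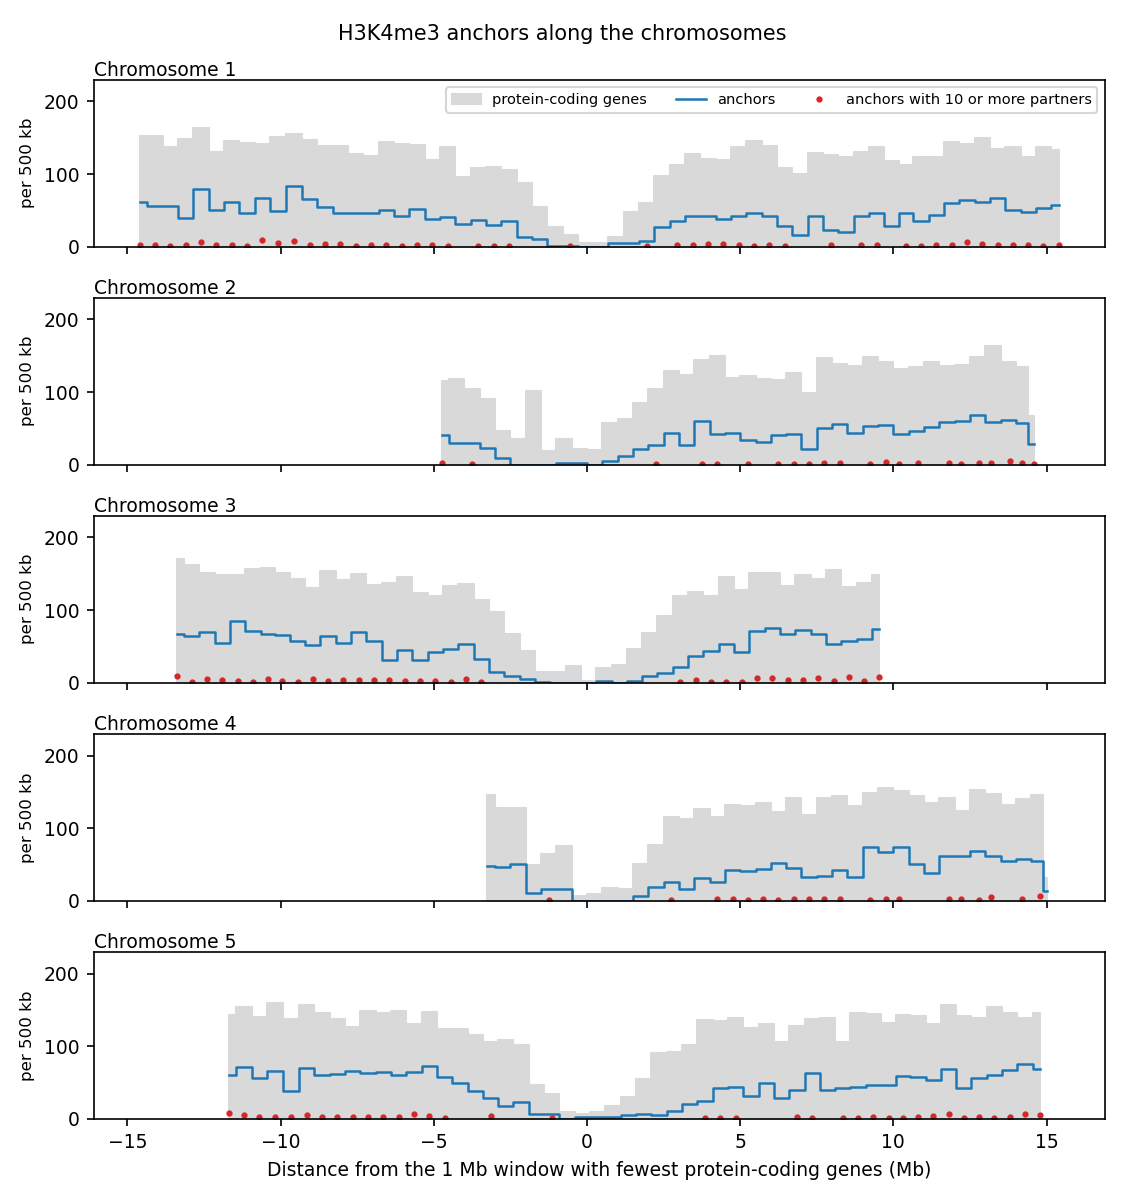
Number of H3K4me3 anchors (blue line), protein-coding genes (grey) and anchors with 10 or more partners (red points, where above 0) per 500 kb window (y axis) along the 5 chromosomes, placed by distance in Mb from the 1 Mb window with fewest genes (x axis). Anchors track genes on the arms, and on chromosome 2 a peak of genes left of the centre holds no anchor.

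Windows with like numbers of anchors differed in the reach of their loops. A window of chromosome 3 (2000001 to 2500000) held most anchors, 85 at 148 genes, with 66 loop ends over 1 Mb or between chromosomes, while a window of chromosome 1 (5000001 to 5500000), which holds LHCB6, had 83 anchors and 194 such ends. The longest stretch with no anchor was 2.49 Mb on chromosome 4 with 84 genes, followed by 2.02 Mb on chromosome 2 with 188 genes, 96 of them with uncharacterised products. The latter includes the large copy of mitochondrial DNA inserted near that centromere, and its window from 3000001 to 3500000 held 102 annotated genes and no anchor. The short arm of chromosome 2 had 38 anchors per Mb, against 87.7 on its long arm. By the rule for pericentromeres, this short arm takes in part of that 2.02 Mb stretch, including its window from 3000001 to 3500000. The density of the short arm without that part was not computed, and the part of this boundary in the difference was not tested. Near chromosome ends, 6.12% of anchors within 1 Mb of an end were highly connected, against 4.37% from 1 to 3 Mb, 4.97% from 3 to 6 Mb and 3.85% beyond, with median tags of 4626, 4346, 4170 and 4053.

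Long loops crossed centromeres on the chromosomes with long arms on either side. Loops from one arm to the other made up 15.5% of loops within chromosome 1, 15.6% in 3 and 14.2% in 5, but 1.82% in 2 and 2.44% in 4, whose short arms held 133 and 188 anchors. These shares were not set against the possible pairs of anchors between the arms. Between chromosomes, the pairs 1 and 3, 3 and 5 and 1 and 5 had most loops, 208, 202 and 184, and the pair 2 and 4 fewest, 38. Set against the possible pairs of anchors, the 4 chromosome pairs with chromosome 3 had 0.00393 to 0.00439% of pairs joined and the other 6 had 0.00194 to 0.00323%.

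Beside the loop lists of the other active marks, the H3K4me3 network had more anchors with fewer partners each. H3K4me3 anchors had a mean of 3.01 partners, against 5.94 in the RNAPII list (4519 anchors, median width 2065 bp) and 3.79 in the H3K4me1 list (6474 anchors, 2766 bp), and at most 98 against 198 and 120. Consecutive anchors were joined by 36.9% of loops within a chromosome for H3K4me3, 24% for RNAPII and 35.4% for H3K4me1, whose lowest PET counts were 6, 4 and 6. With at least 8 PETs for every loop these shares were 59.8%, 36.2% and 49.3%. The lists come from different antibodies, peaks and depths, and the part of these was not tested.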

How the data were processed

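The authors called the loops of shoots with ChIA-PET Tool V3, and the anchors were peaks from their ChIP-seq rather than peaks found in the PETs. Duplicate PETs were not counted. The submitters' processing notes name TAIR10. The deposited list gives the PET count of each loop, the tag count of each anchor, and a p-value with its FDR as the authors' tool computed them. It held loops with an FDR below 0.05 and at least 6 PETs within or 8 PETs between chromosomes, with replicates combined, so depth per replicate and the spread between replicates are not known. A limit on mapping quality is stated for ChIP-seq only, and values at near-identical gene copies are uncertain.

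The self loops were dropped, and anchors were assigned to RefSeq genes of TAIR10.1, in which the length of every nuclear chromosome equals that in TAIR10. Shares were given exact 95% intervals with Python 3.11.15, pandas 2.3.3, numpy 2.4.6 and SciPy 1.17.1, and figures were drawn with matplotlib 3.10.9. The functions were tested on simulated data. No test between conditions was made. Named were the 15 anchors with most partners and the top 2 of each chromosome, the 5 loops with most PETs in each span class, the 5 chains with most anchors, and, for each gene list, the 4 members with most loops and those at no anchor where these were 4 or fewer. Examples outside this rule (AT2G35410, NIA2, GME, PMI1, the linked photosynthesis genes, the gene-free anchors and the windows) were chosen after their values were seen. The anchors, members and lists were chosen with earlier results of these data known. Alternatives were a higher PET minimum, a stricter FDR and other rules for genes, chains, pericentromeres and overlaps.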

Additional observations from a re-analysis of the deposited data

How the results depend on the processing

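Of 40 values recomputed for 10 shares under other settings, 8 stayed inside the 95% interval of the reported value and 32 moved outside it. With at least 8 PETs, at least 10 PETs and an FDR below 0.001, in that order, the interchromosomal share was 18.7%, 4.84% and 0.963%, the share of loops under 20 kb 89.4%, 96.6% and 93.4%, the share joining consecutive anchors 59.8%, 72.3% and 54.9%, the share of anchors with 10 or more partners 1.74%, 0.291% and 0.0108%, the share of genes at an anchor 27.9%, 18.4% and 39.0%, and the RNAPII share of highly connected anchors 80.4%, 83.3% and 100% (1 anchor). With at least 8 and at least 10 PETs, the share of anchors in chains of 3 or more was 39.1% and 34.9%, and the tandem share 48.3% and 47.1%. The pericentromeric share was 0.620% with at least 8 PETs, and photosynthesis genes at an anchor were 79.1% with at least 10.

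Other definitions moved the chain share to 75.9% (passing over 1 anchor) and 78.3% (connected by loops under 20 kb), the share with 10 or more partners to 3.51% (same chromosome only), the pericentromeric share to 0.322% (gene density under 0.3 of the mean), genes at an anchor to 41.9% (any overlap with the promoter) and 22.1% (start inside the anchor), photosynthesis genes at an anchor to 76.1% (start inside the anchor), and the RNAPII share to 62.8% (0.5 of the smaller anchor covered). The convergent minus divergent difference, added after seeing the data, was 11.2 percentage points, and 9.84, 5.07 and 11.9 with at least 8 PETs, at least 10 PETs and the stricter FDR. A higher PET minimum or stricter FDR leaves fewer loops by construction, and beyond that the cause was not tested. No paired analysis was possible because the replicates were combined into 1 list, and for the same reason no replicate could be left out.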
